A study of Mus musculus with 12 samples.

Results

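The genes described here serve protein folding in the endoplasmic reticulum (ER) and the response to its overload, the unfolded protein response. They are 10 genes chosen by symbol out of the 38924 entries of the deposited table: the ER chaperones and folding enzyme Hspa5, Hsp90b1, Calr and Pdia4, the regulators Xbp1, Atf4 and Ddit3, and the targets Herpud1, Dnajb9 and Ppp1r15a. They were chosen with earlier results of these data in view, so their differences between groups are a description: no p is given for them, and whether a fit over all entries called them supports nothing here. The 12 libraries hold RNA of mouse haematopoietic stem and progenitor cells, from which blood cells arise in the marrow. The donors were male C57BL/6 mice of 4 to 5 weeks, and marrow cells carrying CD45R, CD11b, CD3e, Ly-6G or TER119 had been removed with magnetic beads. The naive group held 6 libraries (replicates 1, 2, 3, 7, 8 and 9) of cells that were not injected. The brain-recovered group held 6 libraries (replicates 4, 5, 6, 10, 11 and 12) of cells given intravenously 24 h after an experimental stroke (cerebral ischaemia followed by reperfusion) and isolated from the brain 24 h later. Whether replicates within a group came from separate animals is not stated in the labels, nor how the cells were told apart from brain cells.

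In the ER, BiP (Hspa5) holds unfolded proteins and, while free of them, keeps the stress sensors IRE1, PERK and ATF6 inactive. Under load IRE1 splices the Xbp1 transcript so that it encodes an active transcription factor, ATF6 is cut to release another, and PERK phosphorylates the translation factor eIF2-alpha, which slows protein synthesis while Atf4 translation rises. ATF6 and XBP1 act on chaperone and degradation genes, and ATF4 acts on Ddit3 and Ppp1r15a. The values are per gene, so spliced and unspliced Xbp1 cannot be told apart, and Atf4 translation was not measured.

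Of the ER stress response elements that ATF6 and XBP1 are known to bind, full matches stood in the promoters of Hspa5, Hsp90b1 and Calr. All 10 genes had a promoter in the RefSeq table (build GRCm38.p6, 250 bases before to 50 after the RefSeq start, which can differ from the GENCODE start used for gene coordinates). The element ERSE, CCAAT and CCACG separated by any 9 bases, was searched on both strands, like each motif here, and stood in 3 of these 10 windows, beside 0.119% of all 32851 promoters. The element ERSE-II, ATTGG and CCACG separated by 1 base, did not overlap an ERSE match and stood in the Herpud1 window alone of the 10, beside 0.0365% of all promoters. The core of another element bound by XBP1, TGACGTGG, was in none of the 10 windows and in 0.676% of all promoters. The CARE element bound by ATF4, TGATGNAA, was in the Herpud1 window alone of the 10 and in 3.97% of all promoters. A match is a run of letters, not a measured binding site. The 10 genes were picked as members of this response, whose chaperone and degradation genes ATF6 and XBP1 are known to act on. No enrichment is therefore read from the shares of all promoters. The sequences are shown because Hspa5 and Hsp90b1 were high in the same libraries, with the matching stretches of Calr and Herpud1 for comparison. All are written 5′ to 3′ on the strand of the gene, ending at the base before the start for the first pair, with ERSE and ERSE-II matches in capitals.
Hspa5 (chr2:34771840-34772089, plus strand): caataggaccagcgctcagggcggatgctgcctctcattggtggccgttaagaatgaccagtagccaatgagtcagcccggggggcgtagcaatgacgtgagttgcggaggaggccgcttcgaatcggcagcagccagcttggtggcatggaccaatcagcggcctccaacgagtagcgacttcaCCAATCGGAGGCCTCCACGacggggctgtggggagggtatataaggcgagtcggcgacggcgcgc
Hsp90b1 (chr10:86705445-86705694, minus strand): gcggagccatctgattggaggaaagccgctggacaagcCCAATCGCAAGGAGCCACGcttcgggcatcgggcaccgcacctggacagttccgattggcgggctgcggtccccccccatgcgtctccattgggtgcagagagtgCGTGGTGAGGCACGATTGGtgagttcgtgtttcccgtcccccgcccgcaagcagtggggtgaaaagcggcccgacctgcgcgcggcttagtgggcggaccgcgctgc
Calr (chr8:84847060-84847108, minus strand): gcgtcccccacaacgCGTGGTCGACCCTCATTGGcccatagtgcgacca
Herpud1 (chr8:94386362-94386402, plus strand): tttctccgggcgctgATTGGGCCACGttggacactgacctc
In Hspa5 the ERSE covers bases -65 to -47 from the start. Hsp90b1 holds 2, at -212 to -194 and, on the opposite strand, at -107 to -89. That of Calr lies on the opposite strand at -162 to -144, and the ERSE-II of Herpud1 at -52 to -42.

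Labels in the table are displaced against the values in places, so each label was checked through the length of the gene model behind its row, which can be recovered from the values. The row length equalled the exon length in GENCODE release M21 for 6 of the 10 genes, Hsp90b1 (4032 bases), Calr (2880), Xbp1 (3248), Ddit3 (1713), Herpud1 (2333) and Ppp1r15a (2937). It differed for Hspa5 (3513 against 4229 bases), Pdia4 (2480 against 2399), Atf4 (1724 against 2358) and Dnajb9 (1865 against 2549). For these 4 genes, entries at most 3 places away in alphabetical order on both sides had exactly their own length, and no gene within 60 places had the length of the row. No row thus held the length of another nearby gene, all 10 were kept, and the label of these 4 rests on their neighbours. The annotation release behind the table is not given in the sources used here. Of Hsp90b1, 217 exon bases are shared with Gm15344 and Gm25745 on the same strand and 415 with 1810014B01Rik on the opposite strand. Of Ddit3, 105 exon bases are shared with another annotated gene on the same strand, and a pseudogene, Calr-ps, is annotated for Calr, so reads of these 3 genes may have been divided or shared.

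The values are RPKM, reads per kilobase of gene model and per a library constant. Naive libraries held at least 654419 to 2629290 reads behind these values, and brain-recovered libraries at least 1129517 to 13437150. Only naive replicates 1, 2 and 3 and brain-recovered replicate 12 had fewer than 10000 entries above 0 (4380 to 7164), and the other 8 libraries had 12066 to 23184. Amplified reads that carry no molecular identifier can be copies of 1 molecule, so read numbers describe counting depth only. In such bulk libraries, fewer cells expressing a gene and less RNA per cell cannot be told apart. Of 8 stem and progenitor markers, 7 had a usable label, none by its own length, and they summed to 20.3 to 128 RPKM in the naive libraries. In brain-recovered replicate 11 they summed to 1400 RPKM, of which Myb made up 1335 RPKM. In the other brain-recovered libraries they summed to 18.7 to 98.0 RPKM. Kit, 1 of these 7 markers, was at 0 to 11 RPKM in naive and at 0 to 13.9 RPKM in brain-recovered libraries.

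Hspa5, BiP, and Hsp90b1, the ER member of the HSP90 family, were high in the same 5 brain-recovered libraries. Hspa5 (ENSMUSG00000026864, chromosome 2, 34771970 to 34777547 on GRCm38, plus strand) was at 13.6, 0, 0, 20.9, 7.63 and 16.2 RPKM in naive replicates 1, 2, 3, 7, 8 and 9. It was at 1574, 248, 1325, 867, 778 and 8.55 RPKM in brain-recovered replicates 4, 5, 6, 10, 11 and 12. Replicates 4, 5, 6, 10 and 11 exceeded every naive library, and replicate 12 lay within the naive range. The reads behind these values were 970 to 4025 in the 5 high libraries, against 38 in replicate 12 and at most 86 in a naive library. On the log2(RPKM + 1) scale, where changes of low genes come out too small, the brain-recovered mean was higher by 6.01 ± 1.43 (limma SE, n = 6 per group).

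Hsp90b1 (ENSMUSG00000020048, chromosome 10, 86690209 to 86705509, minus strand) was at 6.37, 0, 0.244, 13.6, 0 and 6.06 RPKM in the naive libraries, in the same order. The brain-recovered libraries had 925, 117, 885, 259, 415 and 4.12 RPKM. The order of the libraries differed little from that of Hspa5, with replicates 4 and 6 highest, replicate 5 lowest of the 5 high ones and replicate 12 within the naive range. The log2 difference was 5.95 ± 1.38 (limma SE, n = 6 per group). The ratio of the Hspa5 to the Hsp90b1 value, both per length, was 1.70, 2.13, 1.5, 3.35, 1.88 and 2.08 in the 6 brain-recovered libraries. It was 2.14, 1.54 and 2.67 in naive replicates 1, 7 and 9, which were the naive libraries with both genes above 0. Where both genes were above 0, the levels thus moved over a wide range while their ratio stayed within 1.5 to 3.35. In naive replicate 8, Hspa5 was at 7.63 RPKM and Hsp90b1 at 0, so no ratio could be formed.

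**Figure D1:**
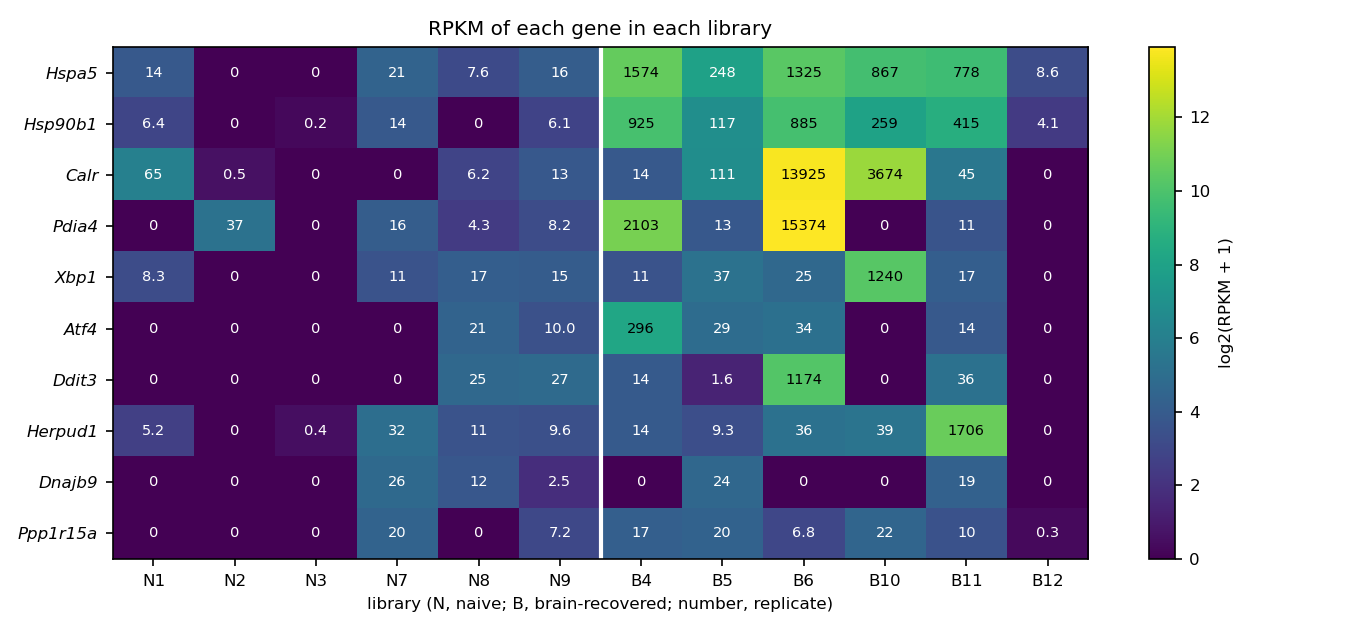
RPKM of the 10 genes (rows) in the 12 libraries (columns; N, naive; B, brain-recovered; number, replicate), with colour on a log2(RPKM + 1) scale. Hspa5 and Hsp90b1 are at 117 to 1574 in brain-recovered replicates 4, 5, 6, 10 and 11, while the other genes exceed 100 in at most 3 libraries.

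Within a library, the place of these chaperones among all entries changed as well. Hspa5 stood at the 95.8 to 99.5 percentile of entries above 0 in brain-recovered replicates 4, 5, 6, 10 and 11. In replicate 12 it stood at the 44.2 percentile, and in naive replicates 1, 7, 8 and 9 at the 54.9, 76.8, 36.8 and 78.1 percentile. Hsp90b1 stood at the 94.4 to 99.2 percentile in the 5 high libraries, at the 34.8 percentile in replicate 12 and at the 7.05 to 59.2 percentile in the 4 naive libraries where it was above 0. A rank within a library does not depend on how libraries are scaled to each other, but it does depend on how many entries are above 0.

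**Figure D2:**
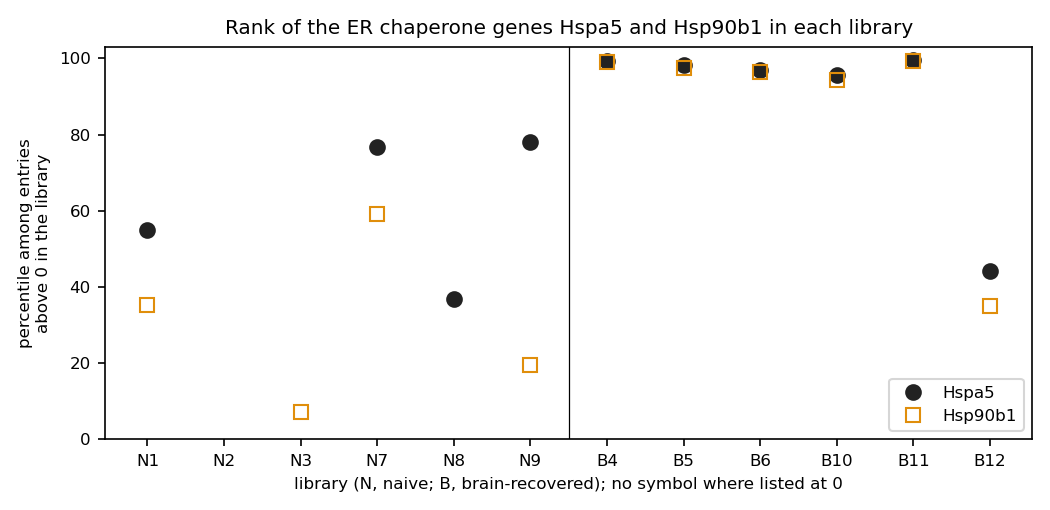
Percentile of Hspa5 (filled circles) and Hsp90b1 (open squares) among the entries above 0 in each library, by library on the horizontal axis. Both lie at the 94.4 percentile or higher in 5 brain-recovered libraries and at the 78.1 percentile or lower in naive libraries and in replicate 12.

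Calr and Pdia4 reached the largest values of the 10 genes, each in few libraries. Calr, the calcium-binding chaperone calreticulin (ENSMUSG00000003814, chromosome 8, 84841850 to 84846934, minus strand), was at 65.1, 0.525, 0, 0, 6.20 and 13.3 RPKM in the naive libraries. It was at 13.8, 111, 13925, 3674, 45.4 and 0 RPKM in the brain-recovered libraries. Replicates 5, 6 and 10 exceeded every naive library, and naive replicate 1 exceeded the other 3 brain-recovered ones. The log2 difference of 4.75 ± 1.38 (limma SE, n = 6 per group) rested on a spread pooled over entries of like abundance. From the spread of Calr itself the SE was 2.31.

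The 6 usable markers of myeloid progenitor granules, Elane, Mpo, Prtn3, Srgn, Ms4a3 and Prss57, summed to 32454 and 110768 RPKM in replicates 6 and 10, where Calr was highest. The sum was 318, 1098, 5039 and 1.47 RPKM in brain-recovered replicates 4, 5, 11 and 12, against naive sums of 1.31 to 114 RPKM. It was thus above the naive range in the 5 libraries with high Hspa5 and Hsp90b1 and not in replicate 12, where Elane, Srgn and Prss57 were listed at 0. The 6 usable markers of B and plasma cells, secretory cells rich in ER, summed to 0 to 99.2 RPKM in the naive and 0 to 205 RPKM in the brain-recovered libraries. Oligodendrocyte markers, 8 with a usable label, gave sums of 6182, 7443 and 29176 RPKM in replicates 4, 5 and 6 and of 50.2, 308 and 53.0 RPKM in replicates 10, 11 and 12. Naive sums were 16.6 to 86.8 RPKM. The 7 usable astrocyte markers gave sums of 1081, 1303, 3427, 130 and 137 RPKM in replicates 4, 5, 6, 10 and 11 and of 5.5 RPKM in replicate 12, against at most 109 RPKM in a naive library. The astrocyte sum was thus above the naive range in the same 5 libraries as Hspa5 and Hsp90b1. The 7 usable microglia and macrophage markers summed to 3070 and 21209 RPKM in replicates 6 and 10, to at most 92.5 RPKM in the other brain-recovered libraries and to at most 141 RPKM in a naive one. Neuron markers exceeded their naive maximum of 154 RPKM in replicates 4, 5, 6 and 10 (212 to 411 RPKM). Endothelial markers exceeded theirs of 156 RPKM in replicate 6 alone (1408 RPKM). Erythroid markers exceeded theirs of 64.0 RPKM in replicates 4, 5, 6 and 12 (177 to 2839 RPKM). The part of any of these cell types in the values of the 10 genes was not tested.

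Pdia4, a protein disulfide isomerase that forms and rearranges disulfide bonds (ENSMUSG00000025823, chromosome 6, 47796141 to 47813430, minus strand), was at 0, 37.5, 0, 16.2, 4.32 and 8.25 RPKM in the naive libraries. It was at 2103 and 15374 RPKM in brain-recovered replicates 4 and 6, at 13.1 and 11.3 RPKM in replicates 5 and 11, and listed at 0 in replicates 10 and 12. Both high libraries exceeded every naive one, and the other 4 lay within the naive range. The replicate 6 value came from 19040 reads, while replicate 10, the library with the most reads, gave 0. The log2 difference was 2.90 ± 1.34 (limma SE), and the SE from the gene's own spread was 2.53. In libraries 7 to 12 alone it had the opposite sign, -2.03, as did the median over all entries tested there, -1.09.

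The 3 regulators each had a high value in a different brain-recovered library. Xbp1 (ENSMUSG00000020484, chromosome 11, 5520659 to 5525893, plus strand) was at 8.34, 0, 0, 10.7, 17.0 and 15.2 RPKM in the naive libraries. It was at 1240 RPKM in brain-recovered replicate 10, at 10.6, 36.6, 25.3 and 16.6 RPKM in replicates 4, 5, 6 and 11, and listed at 0 in replicate 12. Replicate 10 stood far above all others, and the remaining brain-recovered values overlapped the naive ones or exceeded them by little.

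Atf4, the transcription factor of the integrated stress response (ENSMUSG00000042406, chromosome 15, 80255184 to 80257541, plus strand), was at 296, 29.2, 33.7 and 13.8 RPKM in brain-recovered replicates 4, 5, 6 and 11. It was listed at 0 in replicates 10 and 12 and in naive replicates 1, 2, 3 and 7, and was at 20.7 and 9.95 RPKM in naive replicates 8 and 9. Replicates 4, 5 and 6 exceeded every naive library. Ddit3, which encodes the stress-induced transcription factor CHOP (ENSMUSG00000025408, chromosome 10, 127290774 to 127296288, plus strand), was at 14.4, 1.58, 1174 and 35.7 RPKM in replicates 4, 5, 6 and 11. It was listed at 0 in the same 6 libraries as Atf4, and at 25.0 and 27.0 RPKM in naive replicates 8 and 9. Its high library was thus replicate 6, from 1004 reads, while that of Atf4 was replicate 4, from 372 reads. The log2 differences were 2.15 ± 1.32 for Xbp1, 2.37 ± 1.23 for Atf4 and 1.87 ± 1.23 for Ddit3 (limma SE, n = 6 per group). In libraries 7 to 12 alone those of Atf4 and Ddit3 were -1.33 and -1.44.

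Among the targets, Herpud1 was high in 1 library, and Dnajb9 and Ppp1r15a were high in none. Herpud1, a membrane protein of ER-associated degradation (ENSMUSG00000031770, chromosome 8, 94386438 to 94395377, plus strand), was at 5.20, 0, 0.423, 31.5, 10.7 and 9.62 RPKM in the naive libraries. It was at 14.1, 9.26, 36.1, 39.4, 1706 and 0 RPKM in the brain-recovered libraries, with the high value, from 3836 reads, in replicate 11. The log2 difference was 2.24 ± 1.32 (limma SE).

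Dnajb9, an ER co-chaperone of BiP (ENSMUSG00000014905, chromosome 12, 44205559 to 44210326, minus strand), was above 0 in 5 libraries. It was at 25.8, 12.5 and 2.48 RPKM in naive replicates 7, 8 and 9 and at 24.1 and 18.9 RPKM in brain-recovered replicates 5 and 11. The groups overlapped fully, and Dnajb9 alone of the 10 did not pass the filter of at least 1 RPKM in 6 libraries. Ppp1r15a encodes GADD34, the phosphatase subunit that reverses eIF2-alpha phosphorylation (ENSMUSG00000040435, chromosome 7, 45522916 to 45526268, minus strand). It was at 17.3, 19.6, 6.82, 21.9, 10.2 and 0.269 RPKM in the brain-recovered libraries, the last from 1 read, and at 20.5 and 7.19 RPKM in naive replicates 7 and 9. It was listed at 0 in the other 4 naive libraries. Its values were the most even of the 10 genes among the first 5 brain-recovered libraries and reached at most 21.9 RPKM, with a log2 difference of 2.07 ± 1.2 (limma SE).

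**Figure D3:**
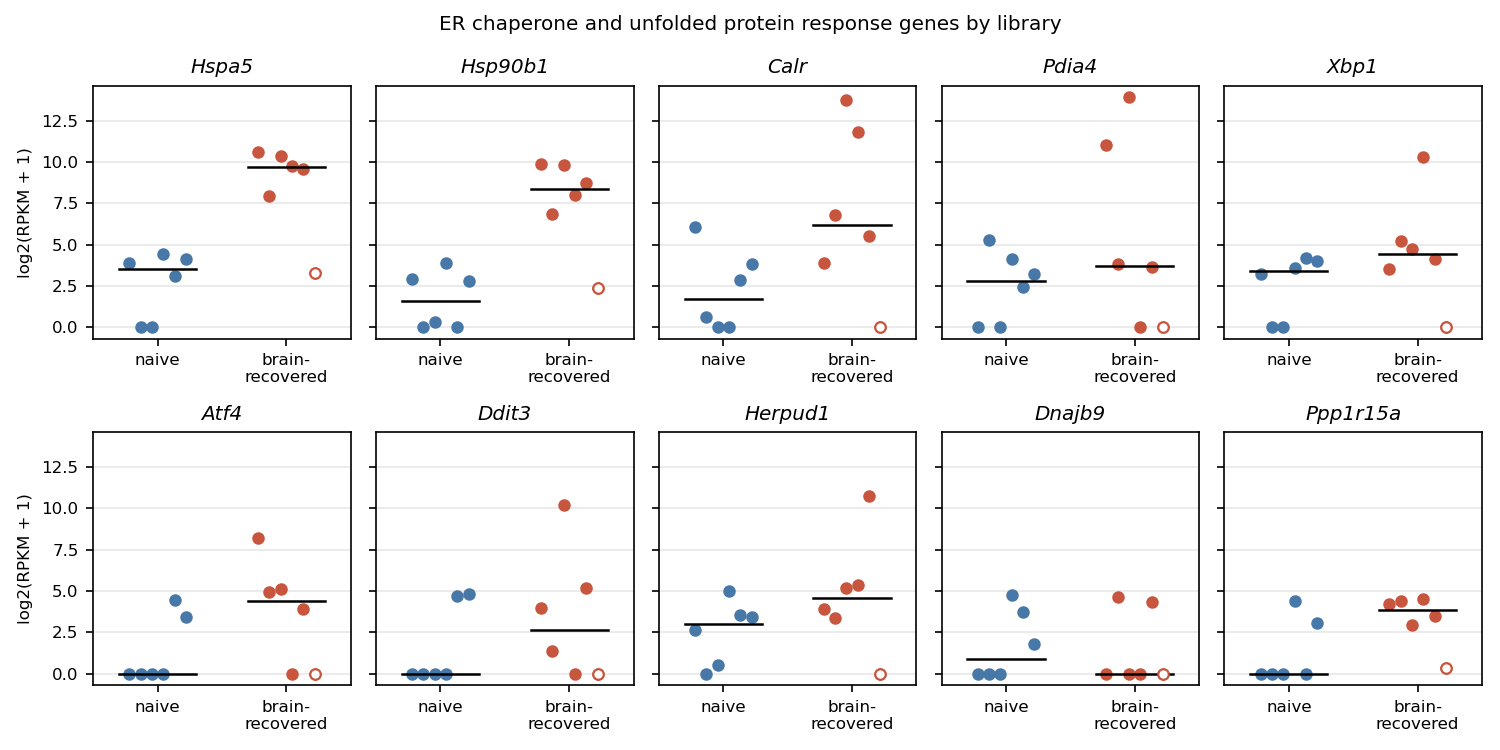
log2(RPKM + 1) of each gene in the 6 naive (blue) and 6 brain-recovered (red) libraries, 1 point per library; lines are group medians and the open point is brain-recovered replicate 12. Groups are separated except for replicate 12 in Hspa5 and Hsp90b1, and overlap further in the other 8 genes.

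By level per length, the median over the brain-recovered libraries was highest for Hspa5 (823 RPKM) and Hsp90b1 (337 RPKM), followed by Calr (78.2), Herpud1 (25.1), Atf4 (21.5), Xbp1 (20.9), Ppp1r15a (13.8), Pdia4 (12.2) and Ddit3 (8.0), with Dnajb9 at 0. The ranges over the brain-recovered libraries overlapped between all 10 genes. Within each of these libraries, however, Hspa5 was above Hsp90b1, by the ratios given above. In the naive group the medians ran from 0 (Atf4, Ddit3 and Ppp1r15a) to 10.6 RPKM (Hspa5), and no gene exceeded 65.1 RPKM. Values over 100 RPKM, a level chosen after the data were seen, occurred for 4, 3, 5, 4, 3 and 0 of the 10 genes in brain-recovered replicates 4, 5, 6, 10, 11 and 12 and for 0 in every naive library. All entries of the table over 100 RPKM numbered 30 to 322 per naive library, 325 to 988 in the first 5 of these brain-recovered libraries and 370 in replicate 12. Of the entries above 0, these were 4.49, 4.09, 5.09, 0.752, 0.897 and 0.129% in naive replicates 1, 2, 3, 7, 8 and 9. In the 6 brain-recovered libraries, in the same order, they were 2.19, 2.63, 6.08, 6.89, 1.51 and 8.45%, so the shares of the groups overlapped. All 10 genes were above 0 in naive replicate 9 and in brain-recovered replicates 5 and 11, but only 2, 2 and 3 were in naive replicates 2 and 3 and brain-recovered replicate 12.

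Differences over all entries were tested with limma on log2(RPKM + 1) in the 17689 entries with at least 1 RPKM in at least 6 libraries, 9 of the 10 genes among them. Hspa5 and Hsp90b1 were called higher (limma, Benjamini-Hochberg adjusted p below 0.05 over all entries), 2 of 9, beside 0.367% of all entries, and nothing is read from this count because the genes were chosen with it in view. None was called lower, as was none of all entries (0%); at an unadjusted limma p below 0.05, 1075 entries were higher and 31 lower. No member had every brain-recovered library above every naive one, which 0.147% of all entries had. Hspa5 and Hsp90b1 had at least 5 brain-recovered libraries above every naive one, beside 1.75% of all entries. These were also the members over 100 RPKM in at least 5 brain-recovered libraries and no naive one, as were 0.0848% of all entries. Xbp1, Atf4, Ddit3 and Herpud1 were over 100 RPKM in exactly 1 brain-recovered library and no naive one, as were 10.2% of all entries. All 9 log2 differences were above 0, as were 74.5% of those of all entries, and their median was 2.37 beside 0.64 over all entries.

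The calls of Hspa5 and Hsp90b1 depended on the libraries and the scaling. Both were lost without naive replicate 8 (log2 differences 6.11 and 5.62), brain-recovered replicate 4 (5.6 and 5.5) or brain-recovered replicate 11 (5.81 and 5.73). For Hspa5 the call ended too when naive replicate 2, 3 or 9 was left out (5.49, 5.49 and 6.31). With the 4 libraries under 10000 entries left out, the differences were 5.78 and 6.42 and neither was called. Neither was called with quantile normalization (4.31 and 4.62) or scaling to library totals (5.05 and 4.75). The differences were 8.36 and 7.77 within replicates 1 to 6, where both were called, and 3.65 and 4.13 within replicates 7 to 12, where neither was. The median over all entries tested moved as well, to 2.42 within replicates 1 to 6 and to -1.09 within replicates 7 to 12.

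**Figure D4:**
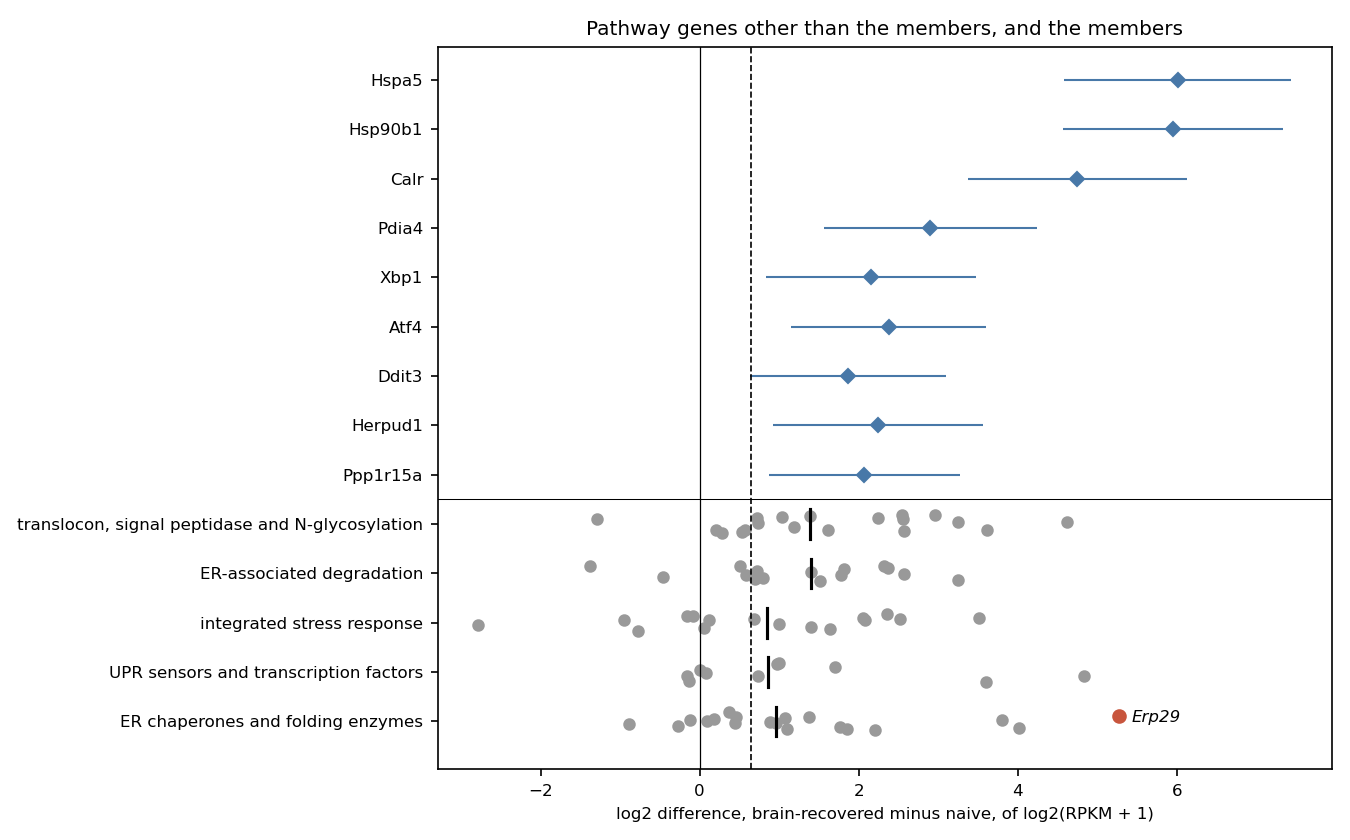
Difference of mean log2(RPKM + 1), brain-recovered minus naive, for the 9 tested members (diamonds with limma SE) and for 79 other genes in 5 pathway lists (points; black bars, list medians). The dashed line is the median over all entries tested, 0.64; Erp29 (red) passed the test over all entries.

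Of 84 other genes of the pathway, placed in 5 lists by function, 82 had a usable label and 79 were tested. Of these, 1 was called higher, Erp29, and 0 were called lower (1.27% of the 79, beside 0.367% of all entries called higher). The median log2 difference of the 79 was 1.00, with 66 above 0, beside a median of 0.64 over all entries. No list gene was over 100 RPKM in at least 5 brain-recovered libraries. In exactly 1 and no naive library 19 of 79 (24.1%) were so, beside 10.2% of all entries tested. In no library at all were 47 of 79 (59.5%) over 100 RPKM, a pattern not counted over all entries. Naive libraries had 0 to 2 list genes over 100 RPKM, and brain-recovered replicates 4, 5, 6, 10, 11 and 12 had 6, 4, 13, 14, 3 and 4. The shares of all entries over 100 RPKM in each library are given above.

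Of 19 tested ER chaperones and folding enzymes, 1 was called higher and none lower (median 0.97). Erp29, an ER protein of the thioredoxin-like fold that aids secretion, was at 576, 3.08, 3527, 3.94, 1447 and 32.0 RPKM in the brain-recovered libraries and at 0 to 11.8 RPKM in the naive ones. Replicates 4, 6, 11 and 12 exceeded every naive library, and replicates 5 and 10 did not, unlike for Hspa5. The log2 difference was 5.27 ± 1.36 (n = 6 per group, SE and adjusted p of 0.029 from limma). The call held in 6 of 23 alternatives (limma adjusted p 0.00355 to 1.00) and was lost without naive replicate 1, 2, 7, 8 or 9 (0.155, 0.103, 0.0896, 0.167 and 0.143, limma adjusted). Leaving out 1 of 3 brain-recovered libraries, replicate 4, 6 or 11, ended it too, with limma adjusted p of 0.155, 0.266 and 0.218.

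The folding genes of highest mean were Sdf2l1, a partner of the BiP co-chaperones, and Dnajc10, a disulfide reductase of the ER, and each owed its mean to replicate 6. There they were at 20714 and 7228 RPKM, against at most 33.8 and 24.7 RPKM in every other library. Their log2 differences of 1.37 ± 1.33 and 4.01 ± 1.29 did not pass (limma adjusted p = 0.970 and 0.224).

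The other lists held no called gene. Among 10 tested sensors and transcription factors (median difference 0.85), Atf6, the sensor named above, was at 7338 RPKM in brain-recovered replicate 10 and at most 38.0 RPKM elsewhere (1.00 ± 1.37, SE, limma adjusted p = 0.986). Cebpb, a transcription factor of myeloid and stress responses, was at 13.7, 108, 988, 1244, 215 and 0 RPKM in the brain-recovered libraries and at 0 to 13.1 RPKM in the naive ones. In 5 of 6 brain-recovered libraries it exceeded every naive one (4.83 ± 1.35, SE, limma adjusted p = 0.0819). Cebpb and its relative Cebpg were the list genes with 5 such libraries, 2 of 79 (2.53%, beside 1.75% of all entries), and they were singled out after their values were seen.

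Among 16 tested genes of the integrated stress response (median 0.84), Slc3a2, the heavy chain of amino acid transporters, and Eif2s1, the alpha subunit of eIF2, had the highest means. Both were high in replicate 6, at 20690 and 11733 RPKM, and at most 33.4 and 23.2 RPKM elsewhere (limma adjusted p = 0.461 and 0.912). Among 15 tested genes of ER-associated degradation (median 1.40), the ubiquitin-conjugating enzyme gene Ube2g2 was at 2230 RPKM in replicate 10 and at most 28.9 RPKM elsewhere (limma adjusted p = 0.553). Among 19 tested genes of the translocon, signal peptidase and N-glycosylation (median 1.38), Tram1, of the protein-conducting channel, and Rpn2, of the oligosaccharyltransferase, were at 34402 and 15580 RPKM in replicate 10. Elsewhere they were at most 68.7 and 365 RPKM (limma adjusted p = 0.127 and 0.82). Each of these named list genes, Erp29 included, had its highest value in replicate 6 or 10, the libraries with the most reads.

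Among 8240 tested entries of exact length other than the members, those most like Hspa5 by Pearson's r of log2(RPKM + 1) over the 12 libraries were Tpst1 (0.93), Gm26872 (0.93), Ppargc1b (0.93), A730071L15Rik (0.92) and Ccdc102a (0.92). These values share libraries and depth and describe likeness only. The 5 genes reached at most 14.3, 36.1, 23.1, 37.7 and 18.8 RPKM, were listed at 0 in brain-recovered replicate 12 and lay at 0 to 4.96 RPKM in the naive libraries. Hsp90b1, a member and so not among them, had r = 0.98 with Hspa5.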

How the data were processed

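RNA was sequenced in 12 libraries, grouped by title (6 per group). Per the labels' protocols, cDNA was amplified from lysate with a low-input SMARTer kit and made into Nextera XT libraries for an Illumina HiSeq. Reads were trimmed with Trimmomatic 0.32 and the build was GRCm38, per the submitters' processing notes. Aligner, counter and annotation release were not given in the sources used here. As deposited by the authors, the values are in 1 table whose header names no unit. Its values were treated as RPKM because, within 24385 of the 24388 entries above 0, the values of a row are whole reads (within 0.004 of a read, plus rounding) over a common length, times a constant for each library.

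Row lengths were set against exon lengths of GENCODE M21. A label was used where the row length was that of its gene or went into it up to 3 times (10624 entries). It was also used where entries within 5 alphabetical places on both sides passed this and no gene within 60 places had the row's length (9779 entries above 0). The other 3985 entries above 0 stayed in the test without a name. Members, lists, the label check and tests were chosen with earlier results of these data known.

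Differences were tested with R 4.3.3 and its package limma 3.58.1 (trended eBayes, no covariates, threshold 0.05, Benjamini-Hochberg over 17689 entries) on log2(RPKM + 1), with no scaling added to that of the authors. The weight of the variance trend was infinite, so each SE comes from all entries of similar abundance. As replicate origin is not stated, p-values cover only the spread between these libraries, possibly technical. The fit and the length recovery were tested on simulated data. Because an exact 0 can be a failed estimate, values are given per library. The text names each member, each list gene that was called, the 2 tested genes of highest mean in each list (1 of them is not reported here), and the 5 entries most like Hspa5. Python 3.11.15 with numpy 2.4.6, pandas 2.3.3 and matplotlib 3.10.9 served for all else. Alternatives were other pseudocounts, filters, scalings, sample weights, leaving out libraries, libraries 1 to 6 or 7 to 12 alone, and exact-length entries.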

Additional observations from a re-analysis of the deposited data

Results flagged for a closer look

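Brain-recovered replicate 12 stood apart from the other 5 libraries of its group on the log2(RPKM + 1) scale for Hspa5 (8.55 RPKM) and for Ppp1r15a (0.269 RPKM). Each gap to the next library was more than 0.625 of the group's range. Of 20 groups of 6 libraries examined, these 2 were marked, where chance marks about 1 in 20.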

How the results depend on the processing

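The count of entries called higher, 65, became 33 with a filter of at least 10 RPKM, 23 in entries of exact length only and 3 without the 4 libraries under 10000 entries above 0. It was 0 with quantile normalization, with scaling to library totals and in libraries 7 to 12 alone, where unadjusted limma p below 0.05 gave 557, 196 and 181 higher and 497, 381 and 825 lower. It was 115 without a variance trend (chosen after seeing the data) and 6010, with 1 lower, in libraries 1 to 6 alone. Leaving out 1 replicate gave 36 to 226 higher and 0 lower, the highest without brain-recovered replicate 12. Of the pathway list genes, 1 was called. It was 25 in libraries 1 to 6 alone, 3 without a trend and 0 to 7 without 1 replicate, the highest without brain-recovered replicate 12. It was 0 under the other pseudocount, without a filter, with the filter of 10, with quantile normalization, upper quartile scaling, library totals or sample weights, without the 4 libraries, and in libraries 7 to 12.

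Quantile normalization and library totals moved the median of all entries from 0.64 to -0.06 and -0.28. That median was 2.42 in libraries 1 to 6 alone and -1.09 in libraries 7 to 12 alone. The log2 differences of the 9 tested members stayed above 0 in all alternatives that could be fitted, except those of Pdia4, Atf4 and Ddit3 in libraries 7 to 12 alone. They ran from 3.65 to 8.36 for Hspa5 and from 4.13 to 7.77 for Hsp90b1. Hspa5 was called in 13 of 23 alternatives and Hsp90b1 in 17 of 24. No paired analysis was possible because the groups share no replicate numbers. Depth limits low values: 1 read per kilobase was worth 0.66 to 1.79 RPKM in naive and 0.791 to 2.00 RPKM in brain-recovered libraries.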
